A study of Mus musculus with 25 samples.

Results

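Endothelial cells line every vessel of the atrium, and the endocardium is the sheet of endothelium that faces its chamber. The 10 genes described here are used as markers of these cells: Pecam1, Cdh5, Kdr, Flt1, Tek, Tie1, Vwf, Eng, Emcn and Egfl7. They were taken by name from the deposited table, and 10 of 10 were present among the 14457 genes analysed. The table covers 25 RNA sequencing libraries of atria from mice aged 60 to 90 days, with individual atria extracted per the labels. There were 7 wild-type males, 5 wild-type females, 5 Pam knockout males and 8 Pam knockout females. The sources used here give no strain, allele, Cre or promoter, and no treatment was applied. Pam encodes the enzyme that amidates peptide hormones, and it lay at 1409 to 6245 CPM (counts scaled to the same total per library) in wild-type libraries and at 295 to 520 CPM in knockout libraries, with no overlap. The measured transcript was thus reduced in the knockout, not absent.

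These genes form a few signalling units. KDR and FLT1 are receptors of vascular endothelial growth factor (VEGF), of which KDR carries most of the growth signal and FLT1 acts largely as a trap. TEK binds the angiopoietins and TIE1 modulates it. Endoglin, the product of Eng, is the co-receptor through which BMP9 and BMP10 reach the endothelial receptor ALK1, and BMP10 is made by cardiomyocytes, in the adult mouse heart mainly in the right atrium. The atrium is a mixture of muscle, vessel, connective and blood cells, and in such bulk samples fewer endothelial cells and less RNA per endothelial cell cannot be told apart.

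By the words in their labels, libraries belong to 3 name sets, LARA (12 libraries whose names begin with LA or RA), CGI (9) and MaleKOAtrium (4, all knockout males). The sources used here do not say what these words mean. Bmp10 varied between 0.433 and 7597 CPM. It stayed under 2 CPM in KF14 and in the wild-type males WM1 to WM3, between 15.6 and 76.5 CPM in WF10, KM01, KF19 and KF16, at 444 CPM in KF18 and 669 CPM in WF12, and at 1999 CPM or more in the other 15. Library names give genotype (W or K), sex (M or F) and the number in the labels. KF17 has a name that begins with LA and a Bmp10 level of 4811 CPM, unlike the other LA-named libraries, which had at most 76.5 CPM. Depth ran from 2246887 to 8098602 assigned reads per library (median 5385966), and the lowest count of any member in any library was 85 reads. WF10, KM01 and KF19 stood apart from the other libraries, and several group differences that moved when one of them was left out are given both ways.

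Transcription factors of the ETS family, which bind DNA around the core letters GGAA, are known regulators of endothelial genes. The windows from 250 bases before to 50 bases after the RefSeq start (build GRCm38.p6) were held for 7 of the 10 genes. The windows of 4 genes are shown as examples: Kdr, Flt1 and Tie1, which like Eng moved with the other members across libraries, and Emcn, which did not. Capitals mark GGAA or its reverse complement TTCC. The windows lie at chr5:75978406-75978705 (minus strand, Kdr), chr5:147725962-147726261 (minus, Flt1), chr4:118489800-118490099 (minus, Tie1) and chr3:137340828-137341127 (plus, Emcn).
Kdr: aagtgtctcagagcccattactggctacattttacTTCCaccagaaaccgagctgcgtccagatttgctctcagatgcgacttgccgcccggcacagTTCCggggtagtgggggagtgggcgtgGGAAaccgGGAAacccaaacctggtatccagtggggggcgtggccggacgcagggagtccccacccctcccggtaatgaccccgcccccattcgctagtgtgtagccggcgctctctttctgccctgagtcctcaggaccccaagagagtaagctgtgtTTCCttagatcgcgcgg
Flt1: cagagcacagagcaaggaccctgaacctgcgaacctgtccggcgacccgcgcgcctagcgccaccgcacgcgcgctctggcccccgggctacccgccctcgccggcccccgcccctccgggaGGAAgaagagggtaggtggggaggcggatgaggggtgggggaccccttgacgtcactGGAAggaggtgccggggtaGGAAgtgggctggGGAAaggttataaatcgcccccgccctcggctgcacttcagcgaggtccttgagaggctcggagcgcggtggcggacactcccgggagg
Tie1: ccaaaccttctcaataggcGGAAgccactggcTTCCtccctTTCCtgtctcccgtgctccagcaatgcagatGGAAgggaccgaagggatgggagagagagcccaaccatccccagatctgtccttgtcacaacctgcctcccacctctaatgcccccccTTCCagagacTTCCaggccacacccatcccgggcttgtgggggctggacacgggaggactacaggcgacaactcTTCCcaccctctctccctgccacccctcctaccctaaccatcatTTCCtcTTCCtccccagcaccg
Emcn: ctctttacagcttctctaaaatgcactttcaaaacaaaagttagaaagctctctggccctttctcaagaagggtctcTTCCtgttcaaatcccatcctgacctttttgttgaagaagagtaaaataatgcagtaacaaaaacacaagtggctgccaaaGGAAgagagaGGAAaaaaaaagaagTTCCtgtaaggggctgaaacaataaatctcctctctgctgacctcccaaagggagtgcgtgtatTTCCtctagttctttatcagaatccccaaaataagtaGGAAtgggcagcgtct
The core, searched on both strands, occurred 9 times in the Tie1 window, 6 times in Emcn, 5 times in Kdr and 4 times in Flt1, against a median of 3 over 32817 windows of the same length. Of the windows not shown, Eng held 4 matches, Tek 2, and those of Egfl7 5, 4 and 1. At least 8 matches were held by 3.71% of all windows and at least 6 by 15.7%. One or more matches occurred in 9 of the 9 windows of the 7 genes (Egfl7 has 3 starts) and in 96.0% of all windows, so its presence alone separates nothing. The longer form AGGAAG (reverse complement CTTCCT, which contains the core) was found in 6 of the 9 windows and 35.4% of all windows, and among the printed ones in Flt1, Tie1 and Emcn but not Kdr. A match describes letters in these windows and is no binding site.

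Reads per gene scale with transcript length, so levels were ordered per kilobase of exon (union of annotated exons, GENCODE M21). Eng was highest at 120 ± 35.3 CPM per kb (SD, n = 25). Pecam1, the junctional adhesion molecule CD31, followed at 77.2 ± 23.2, then Emcn (51.8 ± 12.3), which encodes the surface sialomucin endomucin. Tek had 37.1 ± 11.2 and Egfl7, which encodes a protein secreted by endothelium, 31.4 ± 6.73 CPM per kb. Below these were Tie1 (21.4 ± 5.44), Cdh5 (21.3 ± 5.50), Vwf (13.8 ± 5.79), Kdr (12.05 ± 3.21) and Flt1 (6.64 ± 1.72). Neighbours in this order were not all distinct. Tie1 exceeded Cdh5, the gene of the junction protein VE-cadherin, in 15 of 25 libraries, and Vwf exceeded Kdr in 17 of 25, with mean log2 differences below their SD (0.00 ± 0.40 and 0.11 ± 0.42 on the log2 per-kb scale). Egfl7 lay above Tie1, and Kdr above Flt1, in 25 of 25 libraries. The other neighbours kept their order in 21 to 24 of 25. Egfl7 is uncertain in level because it overlaps a readthrough gene on its own strand, Gm20532, that is not among the genes of the table, and the end of Agpat2 on the opposite strand. Eng overlaps the end of Fpgs and Cdh5 an antisense gene, both on the opposite strand, and the sources used here do not give the strand setting of the counting.

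**Figure D1:**
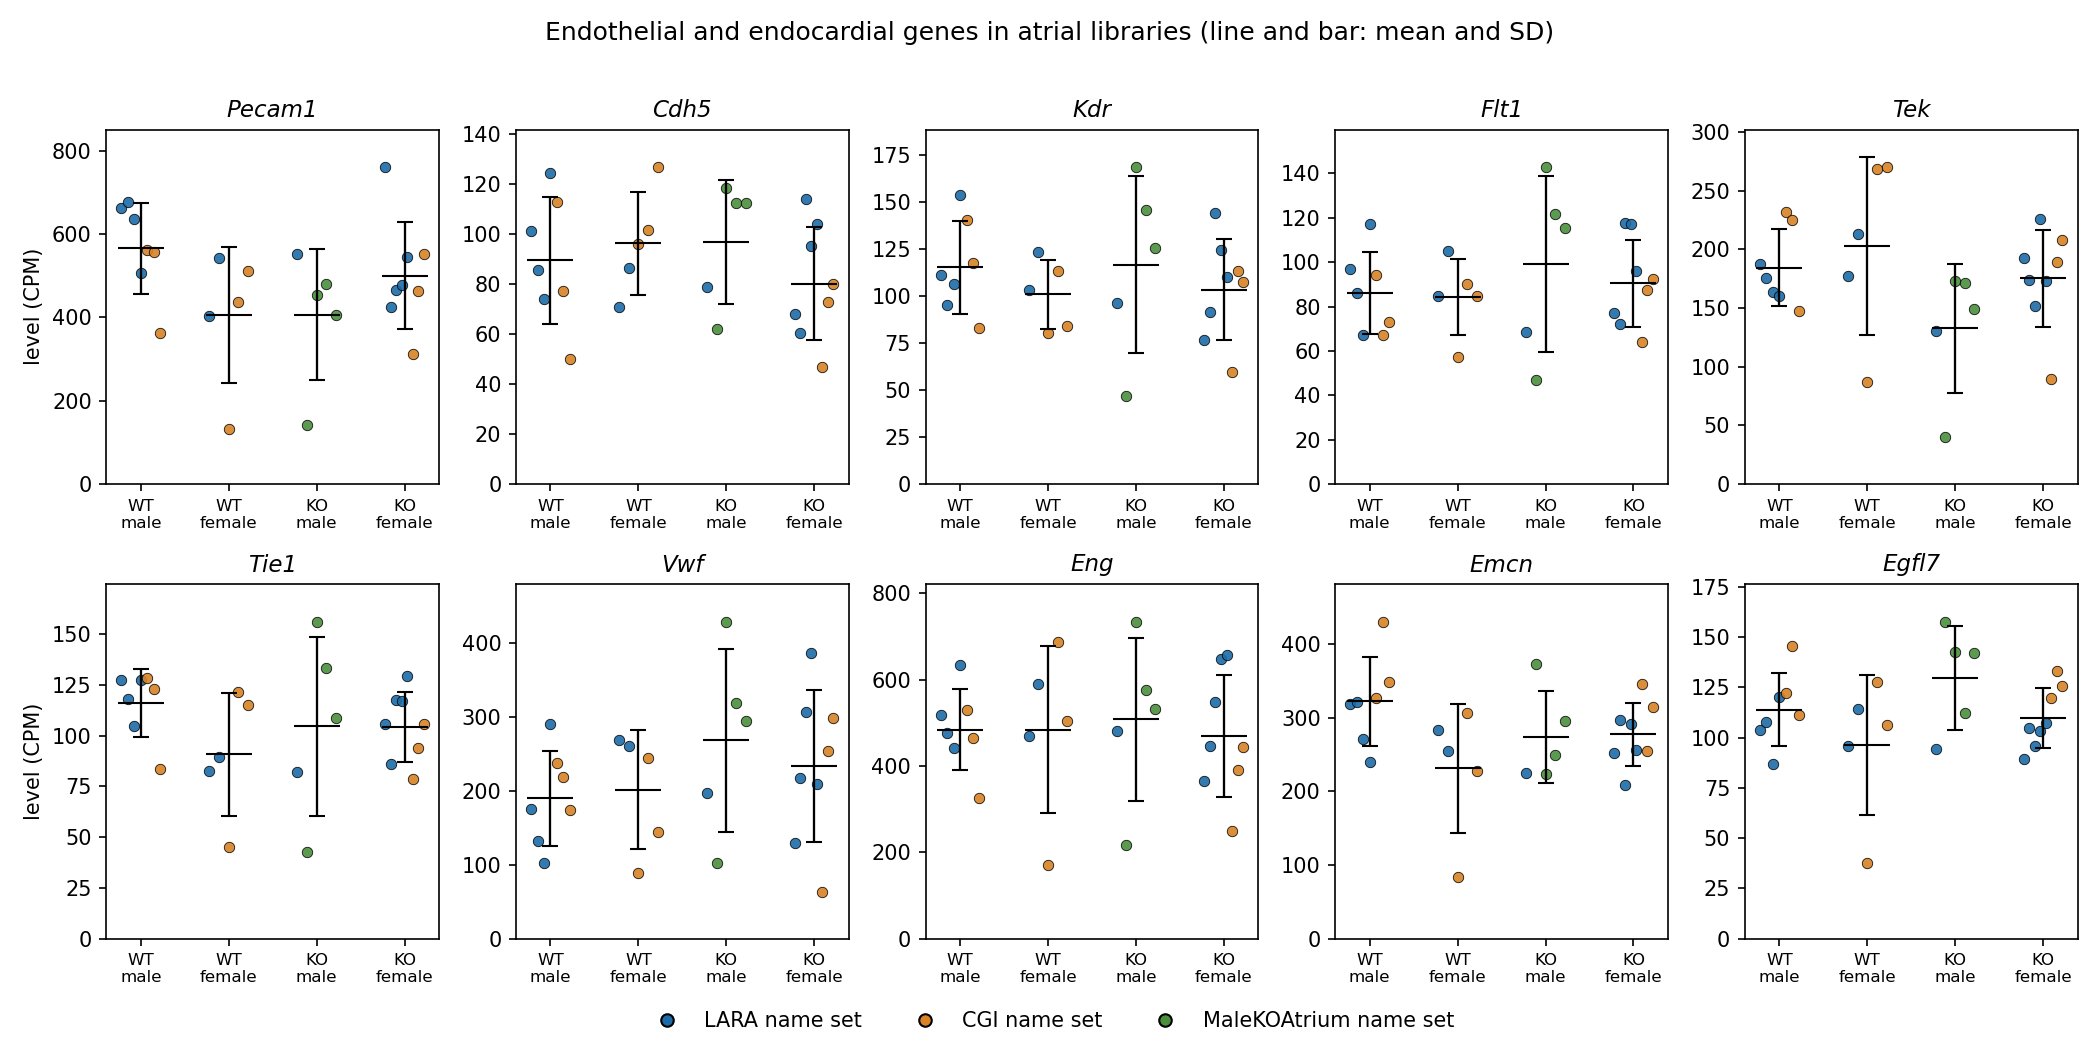
Levels of the 10 genes (y axis, CPM) in each of the 25 libraries by genotype and sex (x axis, WT wild type, KO Pam knockout), coloured by library name set, with mean and SD as line and bar. The groups overlap for every gene, and WF10, KM01 and KF19 are the lowest points of most panels.

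The 2 junction proteins come first. Pecam1 in wild-type males ranged from 363 to 678 CPM with a median of 563. In wild-type females it was 403 CPM in WF8, 542 in WF9, 131 in WF10, 436 in WF11 and 512 in WF12. Knockout males had 552 CPM in KM13, 142 in KM01, 452 in KM03, 479 in KM05 and 405 in KM07, and knockout females 312 to 760 CPM with a median of 472. The 4 groups overlapped, and WF10 and KM01 lay far below the rest of their groups. Cdh5 was 50.1 to 124 CPM in wild-type males (median 85.8) and 47.0 to 114 CPM in knockout females (median 76.6). Wild-type females had 71.0, 86.4, 96.1, 102 and 127 CPM, and knockout males 62.1, 78.7, 112, 112 and 118 CPM, again overlapping. WF10, lowest of all 25 for Pecam1, was at 96.1 CPM for Cdh5, close to the mean of its group (96.4 ± 20.6 CPM, SD, n = 5).

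Among the VEGF receptors, Kdr averaged 115 ± 24.7 CPM in wild-type males (SD, n = 7), 101 ± 18.5 in wild-type females (n = 5), 117 ± 47.1 in knockout males (n = 5) and 103 ± 26.9 in knockout females (n = 8). Flt1 averaged 86.0 ± 18.5, 84.4 ± 17.2, 99.1 ± 39.8 and 90.5 ± 19.7 CPM in the same order. Both were lowest in KM01 (46.9 CPM each) and highest in KM03 (168 and 143 CPM), 2 knockout males of the same name set.

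Of the Tie receptors, Tek was lower on average in knockout males. It was 131 CPM in KM13, 39.7 in KM01, 173 in KM03, 172 in KM05 and 149 in KM07, against 148 to 232 CPM (median 175) in wild-type males. Wild-type females had 177, 213, 86.8, 268 and 270 CPM, and knockout females 89.4 to 226 CPM with a median of 182. Only KM01 and KM13 fell below the lowest wild-type male, so the groups overlapped. Tie1 averaged 116 ± 16.6 CPM in wild-type males, 90.8 ± 30.5 in wild-type females, 105 ± 44.2 in knockout males and 104 ± 17.2 in knockout females. Eng averaged 484 ± 94.0, 484 ± 194, 508 ± 189 and 469 ± 141 CPM, with its lowest value in WF10 (171 CPM) and its highest in KM03 (734 CPM).

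Vwf, which encodes von Willebrand factor, the clotting protein stored by endothelium and platelets, had the widest relative spread of the 10 (SD 41.9% of the mean over 25 libraries). Wild-type males had 102 to 291 CPM (median 175), and knockout females 63.5 to 387 CPM (median 236). Wild-type females had 270, 261, 89.0, 245 and 144 CPM, and knockout males 197, 103, 429, 319 and 295 CPM. High and low libraries occurred in every group. The sum of 5 measured platelet genes was 36.5 to 109 CPM outside WF10, where it was 219 CPM while Vwf was low.

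Emcn was 240 to 430 CPM in wild-type males (median 322) and 208 to 346 CPM in knockout females (median 274). Wild-type females had 284, 255, 83.7, 306 and 228 CPM, and knockout males 225, 373, 224, 250 and 296 CPM. Egfl7 was 86.9 to 146 CPM in wild-type males (median 111) and 89.3 to 133 CPM in knockout females (median 106). It was 95.7, 114, 37.8, 128 and 106 CPM in wild-type females and 94.1, 158, 142, 112 and 142 CPM in knockout males. KM01, lowest of the 25 for 4 members, held the highest Egfl7 and the second highest Emcn value. Egfl7 also hosts the endothelial microRNA miR-126. Its 3p strand lies at chr2:26591402-26591423 (plus strand, GRCm38.p6), within the annotated Egfl7 gene, where it overlaps an annotated exon. It is shown with its seed (bases 2 to 8) in capitals because reads of the host gene are the only trace of this locus in the table.
mmu-miR-126a-3p: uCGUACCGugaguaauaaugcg

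The question of the series, what reduced Pam does to the atrial transcriptome, was put to these genes with limma across all 14457 genes on log2(CPM + 1), with sex and name set as terms and Benjamini-Hochberg adjustment. A gene was called at an adjusted p under 0.05. Over both sexes 0 of the 10 members were called, beside 0.00692% of all genes, which is Pam alone (log2 difference of knockout from wild type -3.29 ± 0.24, SE, n = 25, adjusted p = 1.99e-09). None of the members had an unadjusted p under 0.05 either, which 532 of the 14457 genes had. The median difference of the members was 0.01 beside 0.07 over all genes. The largest in size was Cdh5 at -0.30 ± 0.20 (SE, 95% interval -0.71 to 0.11), and Tek was at -0.23 ± 0.27 (-0.78 to 0.32). Pecam1, Emcn and Egfl7 were at 0.22, 0.21 and 0.20. Without WF10 these 3 were at -0.01, -0.04 and -0.02, Tek was at -0.42 and the median of the members was -0.12. Without KF19 Tek was at -0.08. Vwf was at 0.08 with all libraries, at 0.33 without KF19 and at -0.08 without WF10. The name set term takes up the 4 MaleKOAtrium males, so KM13 is the only knockout male that bears on these differences. Without KM13 the values of Pecam1, Emcn and Egfl7 were 0.33, 0.39 and 0.31, the same as in the fit in females. Over each library left out in turn Cdh5 stayed between -0.42 and -0.19. Intervals of all 10 spanned 0, and the widest, that of Vwf (-0.61 to 0.76), leaves room for a change of either sign. In the authors' deposited table Tek had the smallest p-value of the members (0.0480, log2 ratio of wild type over knockout 0.27). Whether that p-value is adjusted is not stated. The deposited ratios of Pecam1 (0.11), Emcn (0.04), Tie1 (0.02) and Flt1 (-0.14) had the direction opposite to that of the fit. Those of the other members had the same direction.

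In females 0 of the 10 were called, beside 0.0138% of all genes, and their median difference was 0.07 beside 0.12. Emcn was highest at 0.39 ± 0.23 (SE, limma adjusted p = 0.853) and Cdh5 lowest at -0.32 ± 0.23 (adjusted p = 0.853). At an unadjusted p under 0.05 there were 0 members and 656 genes. Without WF10, whose low values weigh on the wild-type side, the median of the members fell to -0.07, Emcn moved from 0.39 to 0.07 and Pecam1 from 0.33 to 0.02. Tek went from -0.16 to -0.42 and Vwf from 0.10 to -0.13 without WF10, while Vwf was at 0.39 without KF19.

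In males 0 of the 10 were called, beside 0.277% of all genes (40 genes, of which 36 were lower in the knockout). At an unadjusted p under 0.05 there were 0 members and 1711 genes. For the members, the median difference was -0.05 beside 0.05 over all genes, and 0.16 without KM01. Tek was at -0.62 ± 0.31 (SE, limma adjusted p = 0.448) and Pecam1 at -0.59 ± 0.29 (adjusted p = 0.453), and Vwf was highest at 0.41 ± 0.33 (adjusted p = 0.654). These values rested in large part on KM01: without it Tek was at -0.23 and Pecam1 at -0.24, and Vwf at 0.72 (adjusted p = 0.213). Down-weighting of variable libraries (limma's arrayWeights) was the only one of the alternatives in males under which a member was called, Vwf at 0.76 (adjusted p = 0.0290), with 3354 genes called beside it. With name set as a term, which leaves KM13 alone against the wild-type males of its set, Vwf was at 0.28 (adjusted p = 0.946). Since 4 of the 5 knockout males form the MaleKOAtrium set, that set and the genotype cannot be told apart in them.

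A difference by sex in the knockout effect (females minus males) was fitted as an interaction term over 25 libraries, with name set as a term. The set term takes up the 4 MaleKOAtrium males, so the male side of the knockout effect is KM13 alone. Effect sizes alone are given here. The members' median was 0.39 beside 0.25 over all genes, and Emcn (0.85 ± 0.49, SE) and Tie1 (0.77 ± 0.52) were highest. Without WF10 Emcn was at 0.47. Without KM13 all knockout males left are of the MaleKOAtrium set, whose term then drops out. The contrast then sets these males against wild-type males with no term for their set. In it Tie1 was at 0.36 and the median of the members at 0.00314.

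**Figure D2:**
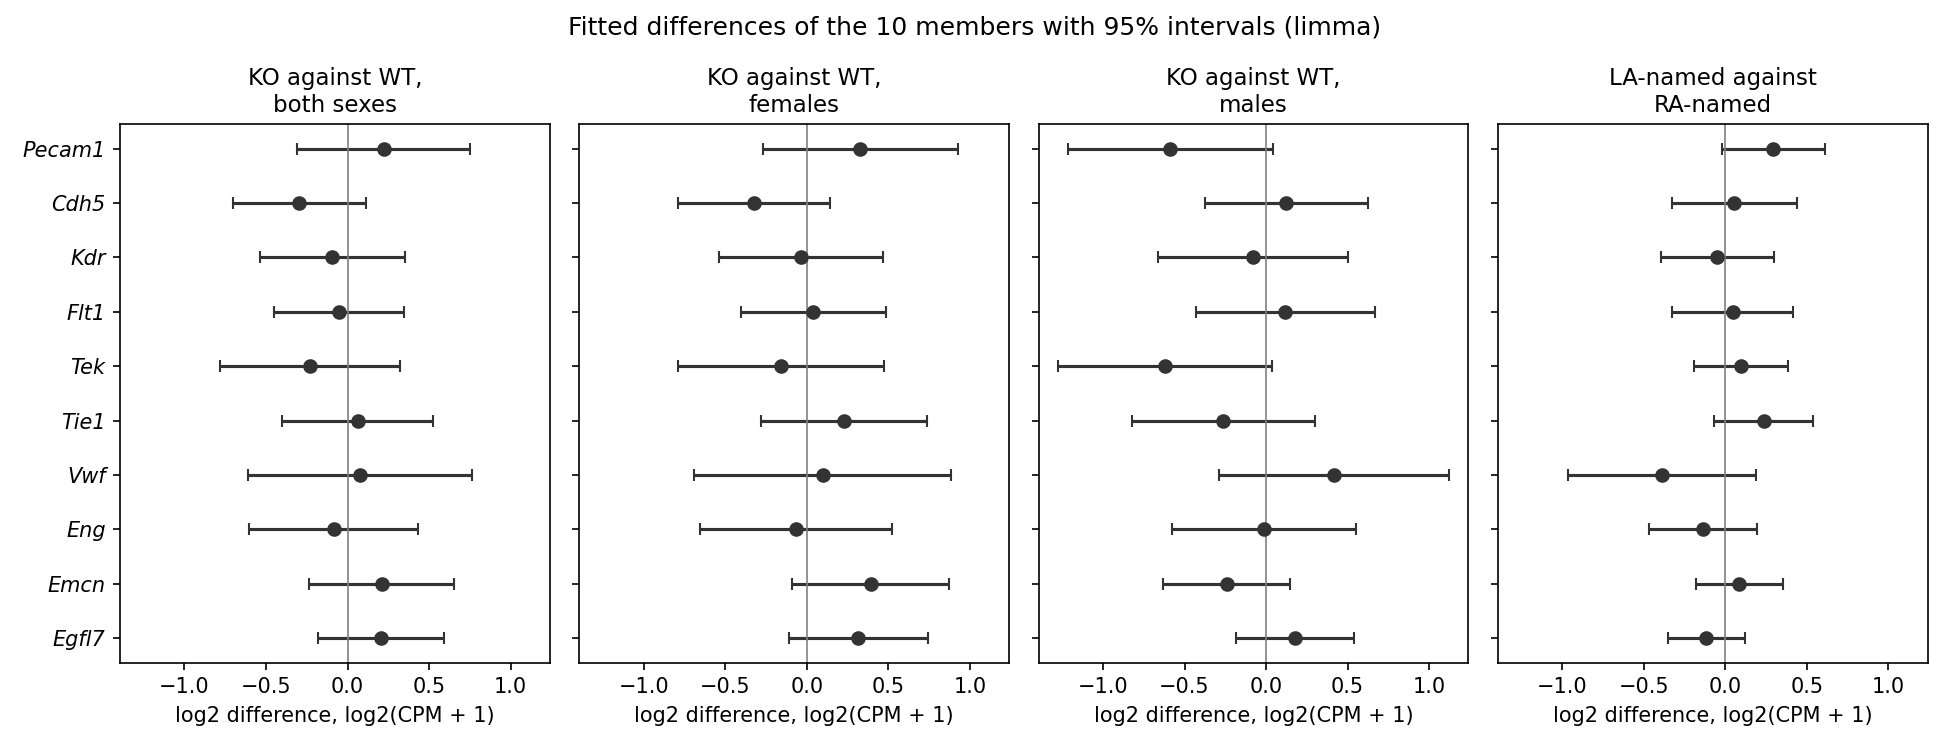
Fitted log2 differences of the 10 genes (x axis, log2(CPM + 1) scale; points, estimates; bars, 95% intervals from limma) for knockout against wild type over both sexes (25 libraries), in females and in males, and for LA-named against RA-named libraries (12). All 40 intervals include 0.

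The 4 libraries of lowest Bmp10 differed from those of high Bmp10 in Pecam1, and nearly without overlap in Vwf. The 4 libraries with Bmp10 under 2 CPM held the 4 highest Pecam1 values, 760 CPM in KF14 and 661, 678 and 635 CPM in WM1, WM2 and WM3, while the other 21 had at most 563 CPM. In the same order Vwf was 129, 175, 133 and 102 CPM. In the 15 libraries with Bmp10 of 1999 CPM or more, Vwf was 175 to 429 CPM (median 261) and Pecam1 363 to 563 CPM (median 479). The lowest Vwf of the 15, in WM7, lay level with that of WM1. Of the 4, KF14 is a knockout and 3 are wild type, so both genotypes are among them. The 4 libraries with Bmp10 of 15.6 to 76.5 CPM did not share the high Pecam1. It was 131, 142 and 312 CPM in WF10, KM01 and KF19, below each of the 15, and 465 CPM in KF16, within their range. KF16 had Vwf at 307 CPM, while in WF10, KM01 and KF19 it was 89.0, 103 and 63.5 CPM. WF12, with 669 CPM of Bmp10, had Vwf at 144 CPM, and KF18, with 444 CPM, had 210 CPM. The other 8 members showed no such separation between the 4 libraries of lowest Bmp10 and the 15. Their values at Bmp10 under 2 CPM lay within the range of the 15 libraries with high Bmp10 for Cdh5, Flt1, Tek, Tie1, Eng and Emcn, and their lowest went just below it for Kdr (76.5 against 82.8 CPM) and Egfl7 (86.9 against 94.1 CPM). Within the 15 libraries of high Bmp10, Pearson's r of Vwf with Bmp10 was 0.27 (Spearman's rho 0.29) and that of Pecam1 0.32 (rho 0.41). Without WM4 and WM7, farthest from the median of Bmp10, these were 0.32 and 0.47 over 13 libraries. For Pecam1 the sign is opposite to that of the contrast between the 4 libraries and the 15. These correlations describe libraries that share processing and depth differences, and no pooled value is given because the Bmp10 levels fall into separate clusters.

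**Figure D3:**
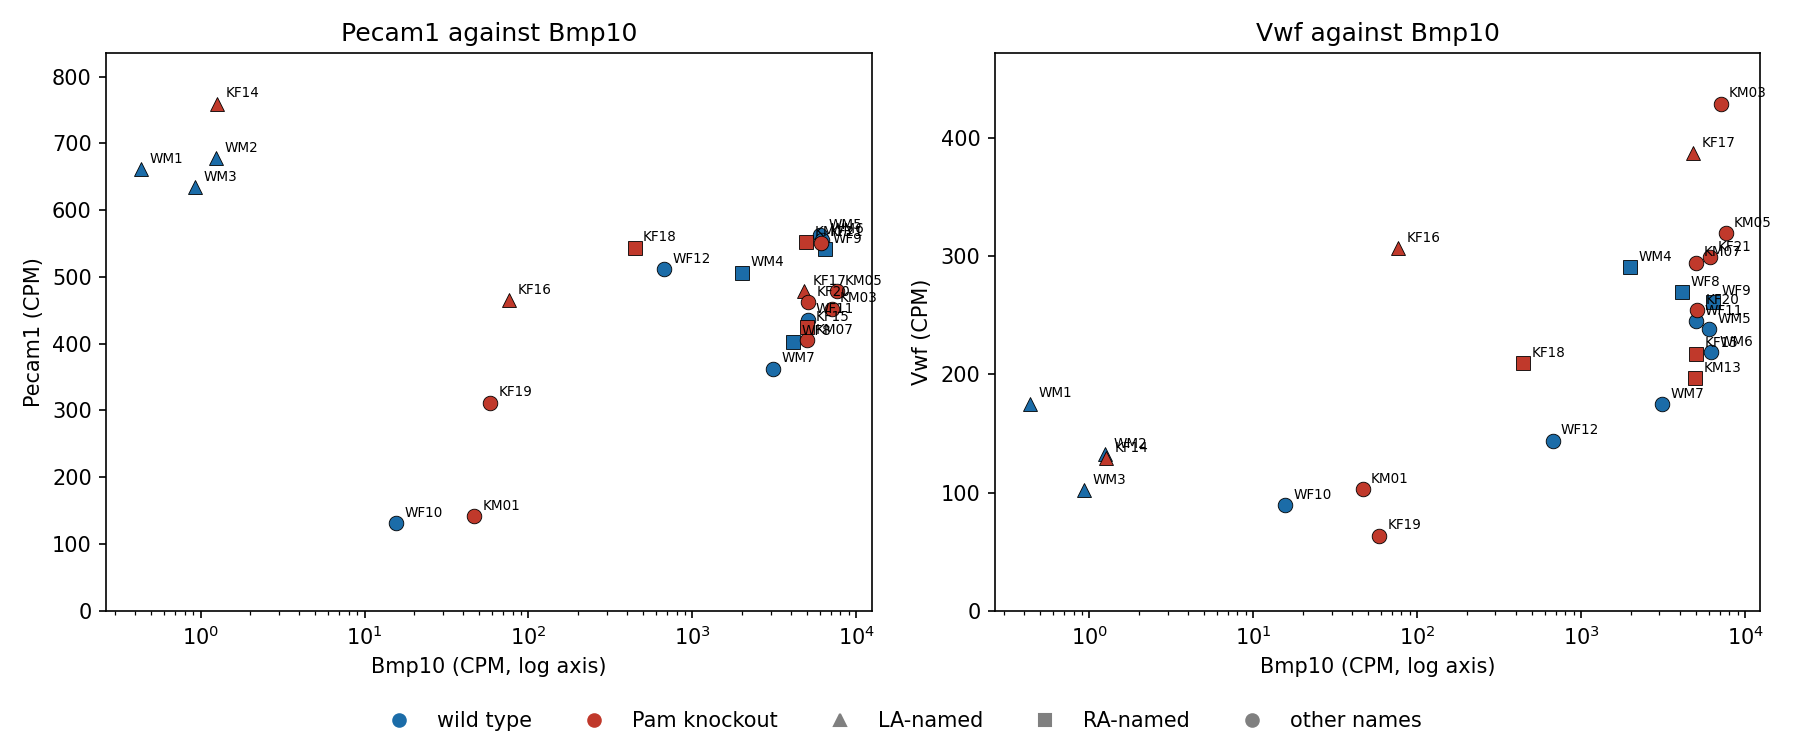
Pecam1 (left) and Vwf (right) in CPM against Bmp10 (CPM, log axis) in 25 libraries; colour gives genotype and symbol shape the start of the library name. The 4 libraries under 2 CPM of Bmp10 sit at 635 to 760 CPM of Pecam1 and 102 to 175 CPM of Vwf.

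Because the libraries under 2 CPM of Bmp10 are all LA-named, the 12 LARA libraries were also compared by the start of their name, with genotype as a term. None of the 10 members was called, beside 0% of all genes, and at an unadjusted p under 0.05 there were 0 members and 846 genes. Bmp10 itself, with 1.26, 76.5 and 4811 CPM in the 3 LA-named knockout libraries, missed the threshold (log2 difference -7.78 ± 1.503, SE, limma adjusted p = 0.825). Vwf was at -0.39 ± 0.27 (adjusted p = 0.859) and Pecam1 at 0.29 ± 0.15 (adjusted p = 0.825). In wild type, the LA-named libraries had 102, 133 and 175 CPM of Vwf and the RA-named ones 261, 270 and 291 CPM, without overlap. In the knockout, the LA-named libraries had 129, 307 and 387 CPM and the RA-named ones 197, 210 and 218 CPM. Fitted apart, the difference was -1.03 in wild type (6 libraries, adjusted p = 0.0551) and 0.26 in the knockout (6 libraries, adjusted p = 0.919). Name and sex go together here: the 3 LA-named wild-type libraries are male and the 3 LA-named knockout libraries female, while each RA-named trio has 1 male and 2 females. With sex as a further term the difference of Vwf was -0.31 (adjusted p = 0.872) and that of Pecam1 0.26 (adjusted p = 0.845). The test of the difference between genotypes, an interaction of name and genotype chosen after these values were seen, gave 1.29 ± 0.44 (SE, 12 libraries, adjusted p = 0.432), with 0 of 14457 genes called and 1604 at an unadjusted p under 0.05. With sex as a further term it was 1.30 ± 0.57 (adjusted p = 0.784).

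A property of the libraries moves with Vwf as well. For each library, the rank correlation of its deviation from the median library with exon length was taken over 9520 genes, here called the exon-length index, and a high index means that long transcripts read high. It ran from -0.54 in KM13 to 0.54 in KM03. It was -0.37, -0.51 and -0.33 in WM1, WM2 and WM3 and -0.40 in KF14, and 0.54, 0.44 and 0.40 in KM03, KM05 and KM07. Vwf, Flt1 and Kdr have the longest exon unions of the 10 (16.1, 13.5 and 9.03 kb). Over all 25 libraries r with the index was 0.49 for Vwf, 0.51 for Kdr, 0.47 for Flt1 and 0.57 for Cdh5 (4.20 kb). It was 0.12 for Egfl7, 0.19 for Tek, 0.23 for Tie1, 0.17 for Eng, -0.29 for Emcn and -0.18 for Pecam1. Over the 22 libraries without WF10, KM01 and KF19, Vwf followed the index with r = 0.65 (rho 0.68), Kdr with 0.65 (rho 0.65) and Flt1 with 0.62 (rho 0.56). Egfl7, the shortest at 3.58 kb, had r = 0.69 (rho 0.67), Cdh5 0.54 (rho 0.53), Emcn -0.12 (rho -0.18) and Pecam1 -0.36 (rho -0.31). Tek, Tie1 and Eng were at 0.29, 0.48 and 0.34. Without WM2 and KM13, at the low end, r was 0.61 for Vwf, 0.62 for Kdr, 0.58 for Flt1, 0.68 for Egfl7, -0.18 for Emcn and -0.25 for Pecam1. With the index as a covariate, added after the data were seen, the LA-named against RA-named difference of Vwf was -0.41 (limma adjusted p = 0.486) and the knockout difference in males 0.14 (adjusted p = 0.860), against 0.41 without it.

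**Figure D4:**
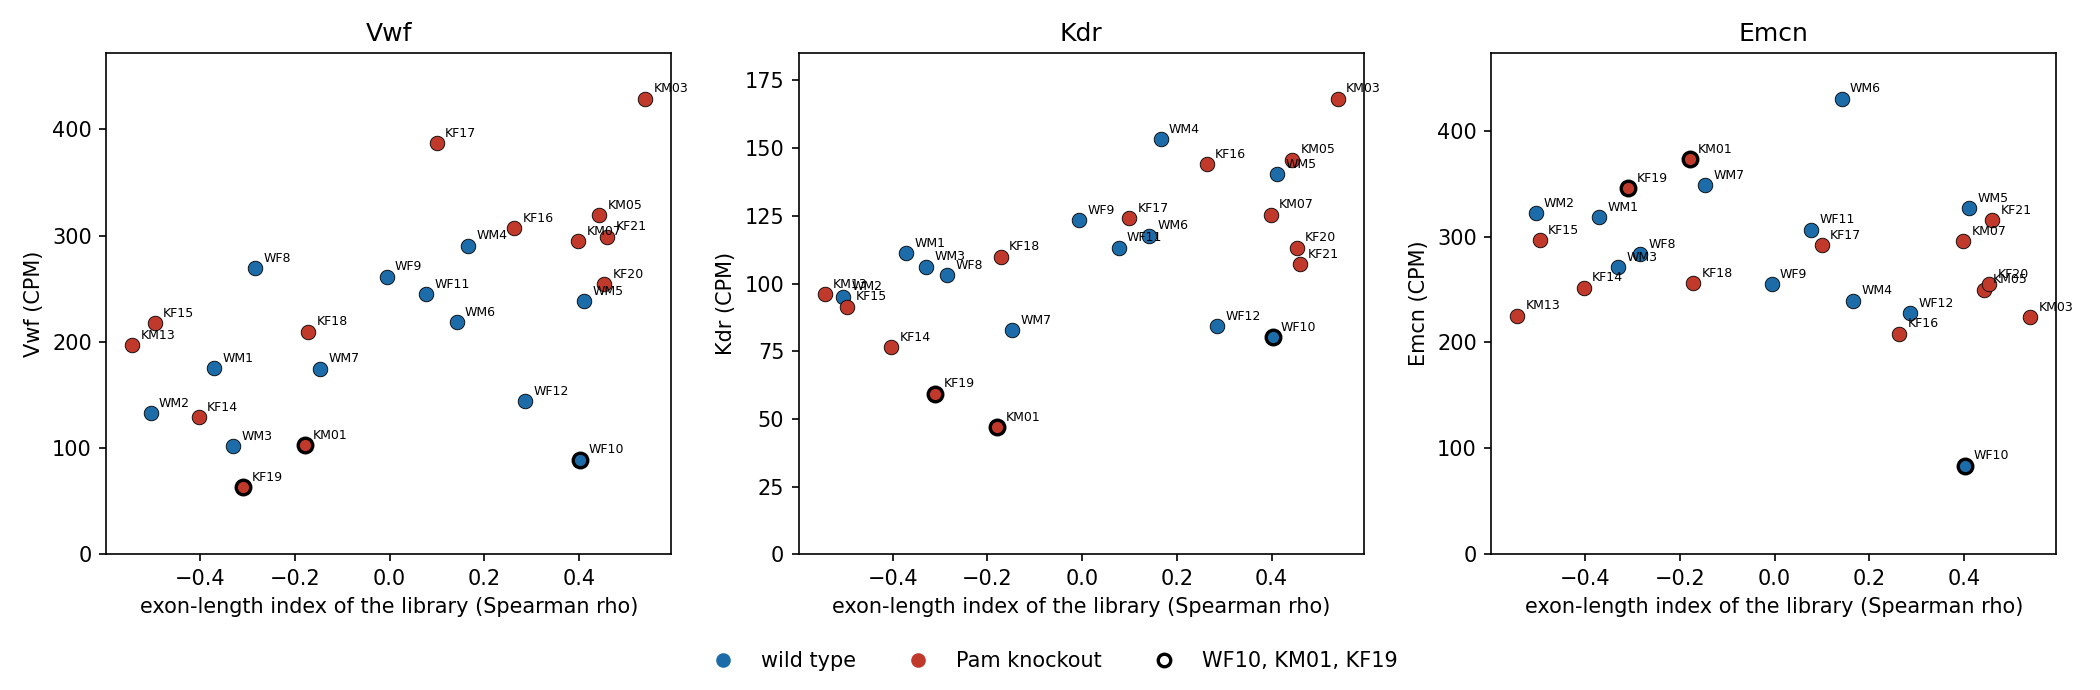
Vwf, Kdr and Emcn (y axes, CPM) against the exon-length index of each library (x axis, Spearman's rho over 9520 genes); thick rims mark WF10, KM01 and KF19. Vwf and Kdr are higher where the index is higher, with KM03 at the top, and Emcn is not.

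WF10, KM01 and KF19 had the lowest summed level of the 10 members, 878, 1230 and 1428 CPM, while the other 22 libraries had 1760 to 2740 CPM (median 2305). After median-ratio scaling, which corrects for genes that take a large share of reads, the sums were 1397, 1471 and 1559 against 1743 to 2513 CPM. They come from a wild-type female, a knockout male and a knockout female, so the low level follows no group of genotype and sex. Their Bmp10 was 15.6, 46.5 and 58.3 CPM. KF16, the next above at 76.5 CPM of Bmp10, had a sum of 2270 CPM. WF10 and KF19 are of the CGI set and KM01 of the MaleKOAtrium set. The part of Bmp10 level and name set in the low sums was not tested. Depth was 2246887 reads in WF10 and 2494461 in KM01, the lowest of all libraries, and 4597974 in KF19. The 3 libraries differ in which members were low. In WF10 the members at the bottom included Pecam1 (131 CPM), Eng (171), Emcn (83.7) and Egfl7 (37.8), while Cdh5 was near the mean of its group. KM01 was lowest for Kdr, Flt1, Tek and Tie1 and high for Emcn and Egfl7, so that Emcn made up 30.3% of its members' sum against 8.18% to 19.8% in the 22. KF19 was lowest for Vwf (63.5 CPM) and Cdh5 (47.0 CPM), and Emcn made up 24.2%. The 44 other pan-endothelial genes summed to 1598 CPM in WF10, 2928 in KM01 and 2915 in KF19, against 2597 to 3781 in the 22. Arterial genes likewise lay below the range of the 22 only in WF10, and capillary genes only in KM01. Endocardial and lymphatic genes lay below it in WF10 and KM01, and venous genes in each of the 3 libraries. Other markers stood outside the range of the 22 in WF10 and KM01. Genes of mitochondrial DNA took 30.2% of reads in WF10, 18.5% in KM01 and 12.9% in KF19, against 7.70% to 12.97% in the 22. In WF10 cardiomyocyte genes summed to 71853 CPM (22 others, 21777 to 48123), ventricular genes to 6804 CPM (301 to 5335), atrial genes to 3493 CPM (12859 to 21603) and fibroblast genes to 1805 CPM (3119 to 5877). In KM01 macrophage genes summed to 2641 CPM (1009 to 1959), proliferation genes to 444 CPM (16.5 to 191) and erythroid genes to 5594 CPM (393 to 3034). KF19 lay within the range of the 22 for the sums of mural, blood, muscle, connective and proliferation genes. The part of these in the levels of the members was not tested. Left out together, the 3 libraries changed the count of members called in none of the 4 comparisons of genotype and sex.

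Most members varied together, and some of them less so without those 3 libraries. The 3 were picked after the data were seen, for the lowest sums of the members. Leaving them out narrows the range and can by itself lower r. Over 45 pairs in 25 libraries, Pearson's r ran from -0.36 (Cdh5 with Emcn) to 0.87 (Tie1 with Eng), with a median of 0.54 and 41 pairs above 0. Without the 3 libraries, Pecam1 against the mean of the other members went from 0.69 to -0.17, Tek from 0.72 to 0.26, Vwf from 0.75 to 0.49 and Emcn from 0.20 to -0.16. Tie1 went from 0.91 to 0.77, Eng from 0.93 to 0.72, Flt1 from 0.81 to 0.66 and Kdr from 0.79 to 0.72. Cdh5 rose from 0.49 to 0.71 and Egfl7 from 0.40 to 0.49. The pair of VEGF receptors, Kdr and Flt1, had r = 0.86 (rho 0.85) in 25 libraries and 0.78 (rho 0.79) in 22, and Cdh5 with Eng reached 0.79 (rho 0.77) in 22. Emcn and Egfl7 were each other's nearest member in 25 libraries (r = 0.81, rho 0.45), and in 22 the value was 0.34 (rho 0.27). Pecam1 and Vwf went opposite ways in 22 libraries (r = -0.56, rho -0.51). These correlations describe shared libraries, depth and length bias as well as the genes, and they carry no test.

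Outside the members, the gene whose pattern was most like their mean over 25 libraries was Ephb4 (r = 0.94, rho 0.84), which encodes a receptor of venous endothelium. It was followed by Mta2, Adgra2, Cyp2d22, Arsa, Atp2b4, Tpra1, Ano6, Ntn1 and Il6st with r of 0.91 to 0.94. Over the 22 libraries the first was Lrp5 (r = 0.92, rho 0.90), followed by Git1, Gata4, Smarcc2, Dhx38, Sp100, Ampd2, Xylt2, Zfp395 and Uggt1 with r of 0.85 to 0.89. The 2 lists of 10 share no gene. For single members over 25 libraries, the nearest genes were Cryz for Pecam1 (r = 0.91), Gata4 for Cdh5 (0.85), Mansc1 for Kdr (0.92), Ltbp4 for Flt1 (0.92), Smc3 for Tek (0.93), Ephb4 for Tie1 (0.94), Abcg1 for Vwf (0.92), Comp for Eng (0.93), Leprot for Emcn (0.94) and Clptm1l for Egfl7 (0.92).

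The wider set of endothelial genes was read in the same fits. Over both sexes 0 of 25 ligands, co-receptors and signal carriers around these receptors were called, 0 of 44 other pan-endothelial genes, 0 of 13 endocardial, 0 of 14 capillary, 0 of 14 arterial, 0 of 7 venous and 0 of 8 lymphatic genes. The share called over all genes was 0.00692%, which is Pam alone. The medians of these 7 lists lay between -0.06 and 0.13, beside 0.07 over all genes. Those with the smallest p, none passing, were Meox2, an endothelial transcription factor (-0.48 ± 0.18, SE), Nrp1, a VEGF co-receptor (-0.51 ± 0.19), Notch4, an endothelial Notch receptor (0.50 ± 0.21), and Gpihbp1, the capillary anchor of lipoprotein lipase (0.49 ± 0.21), each with a limma adjusted p of 0.981. In females the count called was likewise 0 in each of the 7 lists, beside 0.0138% of all genes. Between LA-named and RA-named libraries it was 0 in each as well, beside 0% of all genes. There Aplnr, the apelin receptor, was at -1.26 ± 0.35, and Klf4 and Klf2, transcription factors induced by blood flow, at 0.65 ± 0.17 and 0.62 ± 0.21 (adjusted p = 0.825 for each).

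In males 1 gene of the 7 lists was called. Aqp1, a water channel of capillary endothelium that mesothelium and red cells also make, fell in the knockout by 1.59 ± 0.22 on the log2 scale (SE, n = 12, limma adjusted p = 0.00420). It was 271 CPM in KM13, 108 in KM01, 127 in KM03, 149 in KM05 and 152 in KM07, against 382 to 622 CPM in the 7 wild-type males, with no overlap. Wild-type females had 318, 312, 120, 281 and 285 CPM and knockout females 229 to 447 CPM, a difference of 0.29 ± 0.21 (adjusted p = 0.853). The difference between the sexes was 1.19 ± 0.43, from a fit whose male side of the knockout effect is KM13 alone. With name set as a term the value in males was -0.91 (adjusted p = 0.298), and without the 3 LA-named libraries, all wild type, -1.45 (adjusted p = 0.228). In the same 12 libraries 12 of 12 epicardial and mesothelial genes had a value below 0, each with an unadjusted p under 0.05, and their median was -1.33 beside 0.05 over all genes. Of these, 4 passed the test, Lrrn4 (-1.96), Bnc1 (-1.37), Krt8 (-2.27) and Upk1b (-0.98), beside 0.277% of all genes. The 8 erythroid genes had values above 0 with a median of 1.37, and 0 of 8 passed. The part of these in the Aqp1 value was not tested. Near the threshold but not passing were Gdf2, the gene of BMP9 (-1.42 ± 0.31, adjusted p = 0.0893), Svep1, which encodes a matrix protein that binds TIE1 (1.26 ± 0.28, adjusted p = 0.0893), and Robo4, an endothelial guidance receptor (0.80 ± 0.18, adjusted p = 0.0903).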

How the data were processed

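Atrial RNA of 25 libraries was sequenced from stranded mRNA libraries in a single run, per the labels' protocols. HISAT2, HTSeq, DESeq2 and the mm10 build are named in the submitters' processing notes, without versions. The header calls the values FPKM, but the deposited numbers behave as CPM: each was a whole multiple of 1 read per library (100% of values, tolerance 0.001 reads), which also gave the depth. A log2 ratio of genotype averages and a DESeq2 p-value are further columns of the authors' deposited table. Of 14467 lines, 10 lines of 5 repeated symbols were left out. On these the MaleKOAtrium columns held equal values for 5 of the symbols, and the other columns were not all equal for any of them. Genes needed at least 1 CPM in 5 libraries, which removed 0 of 14457. Tests used limma 3.58.1 in R 4.3.3 (lmFit, eBayes with trend) on log2(CPM + 1), which was planned for FPKM, with Benjamini-Hochberg adjustment over all genes and a threshold of 0.05. The fit in males used the 12 male libraries without a name set term, since the term leaves 1 knockout male in the contrast. Fold changes on this scale understate those of low genes. edgeR 4.0.16 and DESeq2 1.42.0 were run on the recovered reads as alternatives. Library pairs sharing a label number were checked for pairing. The labels do not say whether libraries come from separate animals, so p-values measure the spread between libraries, which may be partly technical. Scripts were tested on simulated data. Members, lists and tests were chosen with earlier results of these data known. The genes named are the members, Pam, Bmp10 and Myl2, the called genes of each list or those of smallest p, and the genes most like the members.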

Additional observations from a re-analysis of the deposited data

How the results depend on the processing

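Of 1900 member values under alternatives, 2 had an adjusted p under 0.05 and 16 moved by at least the SD within groups. The count of members called went from 0 to 1 (Vwf) in males with arrayWeights, and to 1 between LA-named and RA-named libraries without KF16 and KF17 together, which are the LA-named libraries of highest Vwf, so that this value supports nothing. It stayed at 0 under each other alternative and each left-out library. The members' median difference between the sexes was 0.39, and 0.78 with Bmp10 as a covariate or 0.80 with Bmp10 and Myl2. Over single libraries left out it ranged from 0.00314 to 0.49. The low end is the fit without KM13, in which the MaleKOAtrium term drops out, so that it is another contrast. Counts over all genes moved more. For both sexes 1 became 11 (DESeq2), 21 (arrayWeights), 2 (without WF10, KM01 and KF19, and without WF9 or KM13) and 3 (without KM01). In females 2 became 24, 26 and, in the CGI set alone, 21, and 1 under median-ratio scaling, quantile normalization, edgeR, no name set term, the LARA set alone or without libraries of low Bmp10. In males 40 became 63 (median-ratio), 61 (TMM), 74 (quantile), 71 (exon-length index), 62 (fit across all 25), 411 (DESeq2), 3354 (arrayWeights), 21 (without KM01 and KM07), 16 to 205 (single libraries left out, 205 without KM13), and 1 with name set as a term or without the LA-named libraries. Between the sexes 0 became 12 (pseudocount 0.1), 10 (edgeR), 242 (DESeq2), 591 (arrayWeights), 7 and 4 (the covariates), 5 (without the 3 low libraries), 7 (index) and 22 (without KM13). Between LA and RA names 0 became 6 (DESeq2), 173 (arrayWeights), 43 (wild type alone), 42 (without KF17) and 291. Male libraries with a shared number did not pair (correlations of deviations 0.24, -0.20, 0.25 and 0.07). With the replicate block 0 members and 1 gene were called in those 8 libraries, and 13 genes without it. The cause of these changes was not tested. Depth limits these genes little, since each had at least 85 reads per library.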
